A study of Mus musculus with 6 samples.

Results

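The genes described here are 9 surface ligands and enzymes through which a tumour cell restrains or engages T cells, macrophages and natural killer (NK) cells. They were taken by symbol from a table of 24421 gene rows, and all 9 were found. The members are Cd274, Cd276, Cd47, Lgals9, Pvr, Pvrl2 (Nectin2 in newer annotations), Nt5e, Tnfsf9 and Ulbp1. RNA was sequenced from 3 mouse pancreatic ductal adenocarcinoma lines, 2838c3, 6419c5 and 6499c4. From each line there was 1 library of cells given the solvent DMSO (vehicle) and 1 of cells given 250 nM G-1, an agonist of the oestrogen receptor GPER, both taken at 16 hours. With 1 library for each line and treatment, spread between replicate cultures could not be measured, and nothing in the labels says whether libraries came from separate cultures. As background, these lines are known as clones from mouse pancreatic tumours. Tumours grown from 2838c3 and 6499c4 are known to hold many T cells, and those from 6419c5 few.

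Ligands of these kinds act as brakes or as alarm signals. PD-L1 (Cd274) and B7-H3 (Cd276) belong to the B7 family, and PD-L1 quiets T cells through the receptor PD-1. Galectin-9 (Lgals9) binds TIM-3 and other receptors of T cells, and the product of Tnfsf9 is the ligand of the costimulatory receptor CD137. CD47 tells macrophages through SIRPa not to engulf the cell. CD155 (Pvr) and CD112 (Pvrl2) are read by the activating receptor CD226 and the inhibitory receptor TIGIT. CD73 (Nt5e) makes adenosine, which dampens T cells, from AMP outside the cell. MULT1 (Ulbp1) is a stress-induced ligand of the activating NK receptor NKG2D.

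Reads in genes ranged from 5455990 to 8890821 per library, and 13071 to 13627 genes were above 0. Values are FPKM, fragments per kilobase of gene length on the library scale of the authors. Whole reads were recovered from them, so that counting intervals could be given. A count of 0 allows up to 3 reads. Epithelial and ductal markers were present, with 8 of 9 at or above a mean of 1 FPKM and a summed level of 3534 to 6103 FPKM over the libraries. None of 7 leukocyte and T cell markers and none of 6 NK markers reached 1 FPKM, and their summed levels stayed at or below 0.154 and 0.212 FPKM in every library. Of the 9 macrophage and dendritic markers only Cd68 and Cd14 passed that level, while Adgre1, C1qa and C1qb were at 0 in all libraries. The summed level of these 9 was 40.9 to 67.4 FPKM over the libraries. Gper1, which encodes the target receptor of G-1, had 0 reads in each of the 6 libraries. Whether a lower value means fewer cells with the RNA or less RNA per cell cannot be told apart in bulk RNA.

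All 9 genes were at or above the level filter, a mean of 1 FPKM over the 6 libraries. Lgals9 was the most abundant at a mean of 104 FPKM, above 93.4% of the 10748 genes tested. Cd47 followed at 65.2, Nt5e at 37.0, Pvr at 36.5, Cd276 at 20.9, Tnfsf9 at 18.3, Ulbp1 at 11.0 and Pvrl2 at 7.98 FPKM. Cd274 was the least abundant at 1.66 FPKM, above 5.76% of the tested genes. Ulbp1 passed the filter only through 2 of the lines, since it had no reads in 6499c4.

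**Figure D1:**
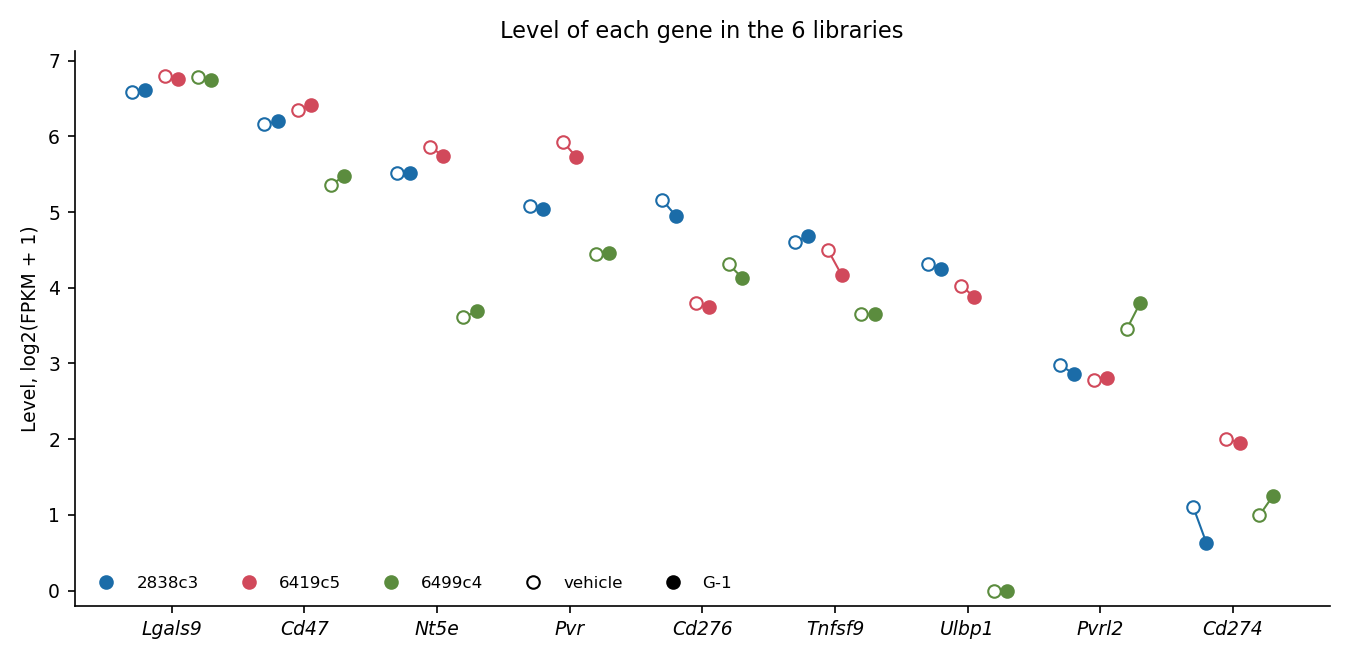
Level of the 9 genes in each library as log2(FPKM + 1), ordered by mean level; open points are vehicle, filled points G-1, and lines join both libraries of a cell line. Both libraries of a line lie close together for most genes, and Ulbp1 lies at 0 in both libraries of 6499c4.

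G-1 was compared with vehicle across the 3 lines. None of the 9 genes passed the test (limma with the line as block, adjusted p from 0.548 to 0.976), where 0.0279% of all tested genes passed. At an unadjusted p under 0.05 the count of members was 0 too, against 10.1% of all genes. Limma-voom on the recovered reads also called 0 of 9, with 0 at an unadjusted p under 0.05 and a smallest adjusted p of 0.356, where 1.61% of genes passed. The median log2 difference of the 9 was -0.07, beside -0.01 over all genes. The median size of the difference, sign left out, was 0.07, beside 0.09 over all genes. Cd47 was the 1 member higher under G-1 in all 3 lines, and Cd276 the 1 member lower in all 3. Over all genes these shares were 15.4% and 17.5%. The 95% intervals of the differences reached from -0.50 to 0.36 on the log2(FPKM + 1) scale. Cd274 set both the lowest bound and the widest interval.

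**Figure D2:**
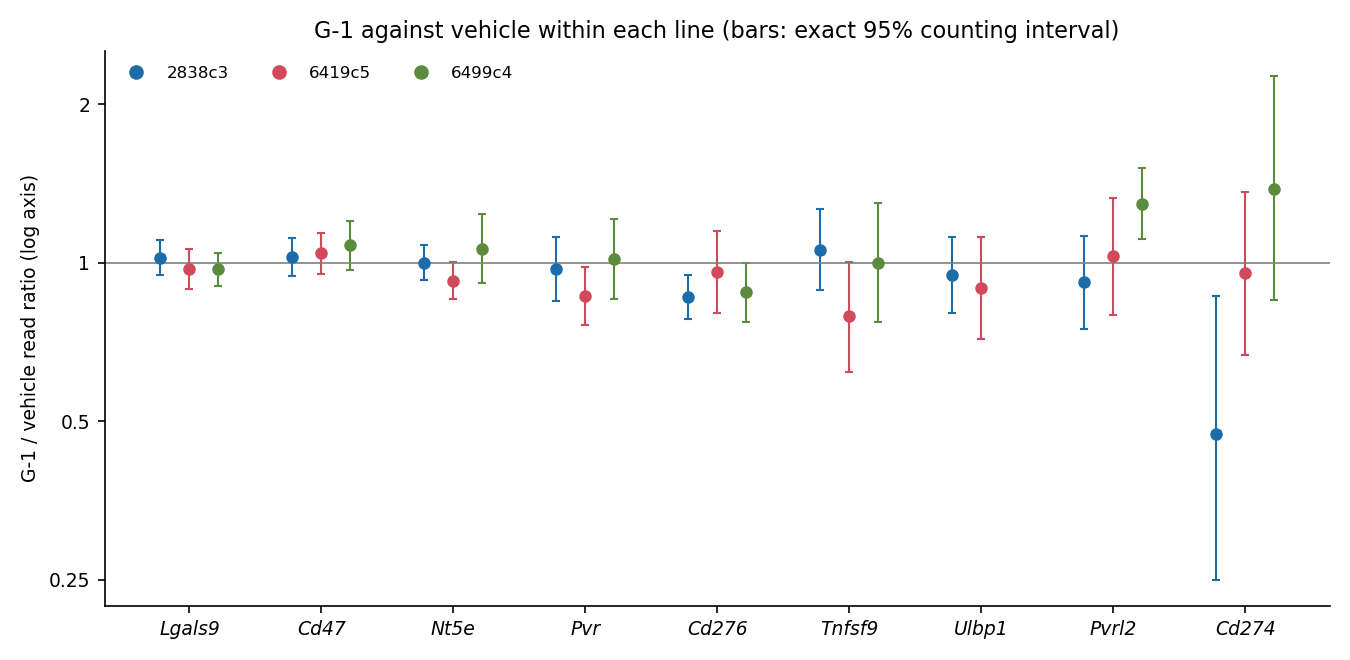
Read ratio of G-1 to vehicle in each line on a log axis, with exact 95% binomial intervals that cover counting error only; Ulbp1 has no value in 6499c4, where it had 0 reads. Most points lie near 1, and the intervals of Cd274 are the widest.

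Differences between lines were larger in size. The test between 6419c5 and 2838c3 called 5 of the 9 genes (4 higher, 1 lower in 6419c5), where 51.5% of all genes passed (26.2% higher, 25.3% lower). Between 6499c4 and 2838c3 it called 7 (1 higher, 6 lower in 6499c4), where 55.6% passed (26.6% higher, 28.9% lower). Between 6419c5 and 6499c4 it called 8 (6 higher, 2 lower in 6419c5), where 45.0% passed (23.7% higher, 21.3% lower). The first of these shares is near that of all genes. The 7 and the 8 include Ulbp1, which passed the level filter only through 2838c3 and 6419c5. Voom called 5, 7 and 8 members, beside 56.2, 61.6 and 50.8% of genes. The median size of the difference was 0.32, 0.76 and 0.86 on the log2 scale for the members and 0.34, 0.38 and 0.30 for all genes. For 6 of the 9 the highest line mean was at least 2-fold above the lowest, which held for 26.0% of tested genes. These 6 also include Ulbp1, with the same limit. Each line is represented by its vehicle and its G-1 library, so the p-values rest on the spread within lines after treatment was accounted for and may reflect technical spread only.

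**Figure D3:**
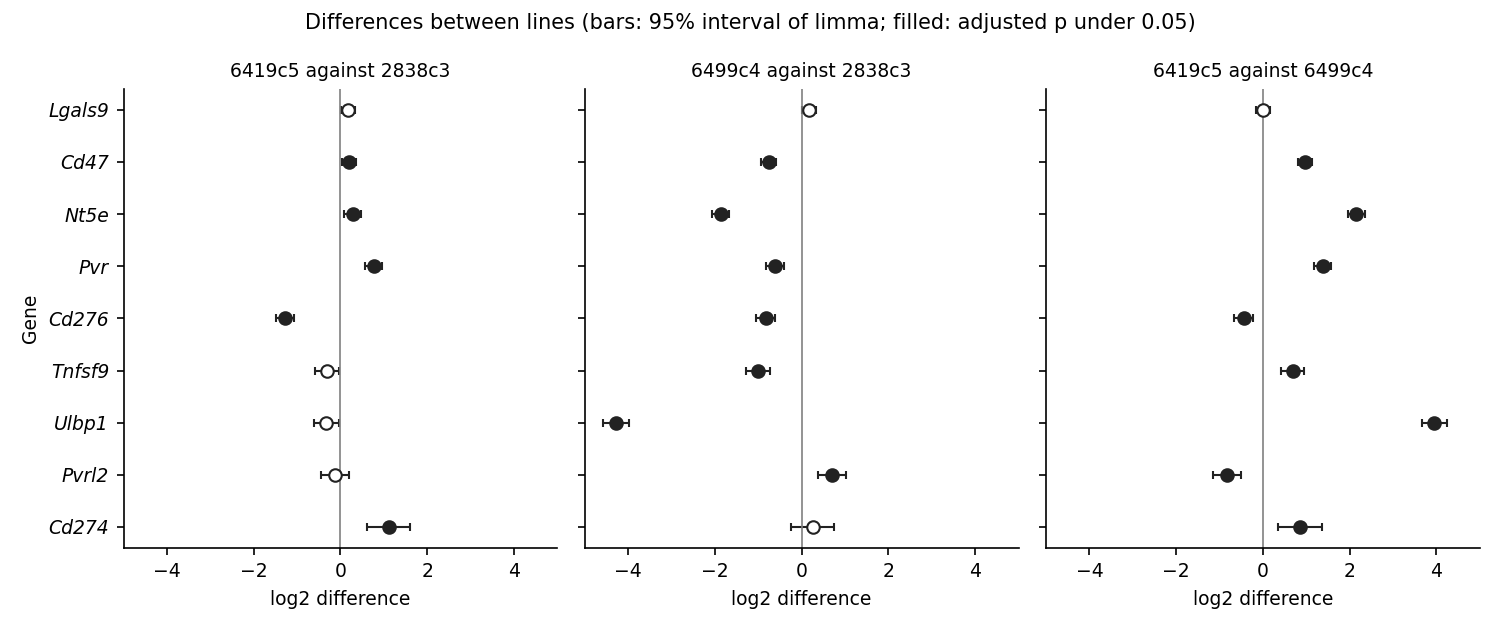
Log2 differences of the 9 genes between each pair of lines on the log2(FPKM + 1) scale, with 95% intervals from limma; filled points passed at an adjusted p under 0.05. Ulbp1 and Nt5e lie farthest to the side of low levels in 6499c4, Cd276 lies lower in 6419c5 than in 2838c3, and Lgals9 stays near 0.

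Cd274, the gene of PD-L1 (chromosome 19, 29367455 to 29388095, plus strand, GRCm38, as for all positions), was low in every library and highest in 6419c5. Its level was 1.16 FPKM with vehicle and 0.548 with G-1 in 2838c3, against 3.001 and 2.88 in 6419c5 and 0.991 and 1.37 in 6499c4. These values rest on 36 and 17, 78 and 57, and 33 and 40 reads. Both 6419c5 libraries lay above the other 4, while the libraries of 2838c3 and 6499c4 overlapped. The read ratio of G-1 to vehicle was 0.474 in 2838c3 (interval 0.249 to 0.865), 0.959 in 6419c5 (0.669 to 1.37) and 1.38 in 6499c4 (0.851 to 2.27). The direction of the ratio was not the same in all lines, a difference that was not tested, and the groups of vehicle and G-1 libraries overlapped. The mean log2 difference was -0.09 (SE 0.18, interval -0.50 to 0.32, adjusted p = 0.888). Without 2838c3 it was 0.10.

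Between lines Cd274 was higher in 6419c5 than in 2838c3 (log2 difference 1.11, SE 0.22, adjusted p = 0.00436) and than in 6499c4 (0.86, SE 0.22, adjusted p = 0.0153). At this low level the pseudocount understates the difference, and voom on the reads gave 1.83 and 1.36. The first of these calls was lost without the G-1 library of 6419c5 (adjusted p = 0.0502). The other was lost without the vehicle library of 6419c5 (0.0863), the G-1 library of 6419c5 (0.113) or the vehicle library of 6499c4 (0.0816). Between 6499c4 and 2838c3 the difference was 0.25 (interval -0.26 to 0.76, adjusted p = 0.353), so the order of these lines was not resolved.

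Cd276, which encodes B7-H3 (chromosome 9, 58524298 to 58555437, minus strand), was highest in 2838c3. Gene models on the opposite strand overlap exons of Cd274, Cd276 and Pvrl2, and reads cannot be assigned by strand here. It stood at 34.7 (vehicle) and 30.0 FPKM (G-1) in 2838c3, against 13.0 and 12.5 in 6419c5 and 18.8 and 16.6 in 6499c4. The G-1 library was the lower in each line, by a read ratio of 0.862 in 2838c3 (interval 0.784 to 0.948), 0.961 in 6419c5 (0.802 to 1.15) and 0.880 in 6499c4 (0.773 to 1.00). On the log2 scale the mean of -0.15 (SE 0.07, interval -0.32 to 0.03) did not pass, with an adjusted p of 0.548 over all genes. All 3 lines were told apart. The gene was lower in 6419c5 than in 2838c3 by a log2 difference of -1.28 (SE 0.09, adjusted p = 5.45e-05). It was also lower in 6499c4 than in 2838c3 (-0.83, SE 0.09, adjusted p = 0.00024) and lower in 6419c5 than in 6499c4 (-0.44, SE 0.09, adjusted p = 0.00644). The last call ended without the vehicle library of 6419c5 (adjusted p = 0.0624).

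The remaining B7 family genes were close to silent. Of the 6 others on the list none reached the level filter, and Cd86, a costimulatory ligand of professional antigen-presenting cells, had 0 reads in all libraries. Pdcd1lg2, which encodes the second PD-1 ligand PD-L2, had 1 read in all. Icosl had 5 to 20 reads per library. Vtcn1, the gene of the inhibitory ligand B7-H4, had 20 and 17 reads in 6499c4 and 0 to 2 elsewhere.

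Genes that act on PD-L1 were expressed in these cells. All 16 on that list passed the level filter, among them the interferon gamma receptor genes Ifngr1 and Ifngr2 and the stabiliser of PD-L1 at the cell surface, Cmtm6. None was called for G-1. In all 3 lines 3 of them lay above vehicle and 3 below it, beside 15.4% and 17.5% of all genes. Their median log2 difference was -0.02. The kinase gene Jak2 (-0.20, SE 0.07, adjusted p = 0.424), the NF-kB subunit gene Nfkb1 (-0.14, SE 0.06, adjusted p = 0.516) and Egfr (-0.18, SE 0.11, adjusted p = 0.607) were the 3 ranked first by their smallest difference over the lines. In 6419c5, 7 of the 16 were higher and 2 lower than in 2838c3, beside 26.2% and 25.3% of all genes. Against 6499c4, 6 were higher and 2 lower, beside 23.7% and 21.3%. Between 6499c4 and 2838c3, 4 were higher and 7 lower in 6499c4, beside 26.6% and 28.9%. Lower in 6419c5 than in 2838c3 were Jak2 (18.2 against 34.8 FPKM) and the NF-kB subunit gene Rela (40.6 against 70.2). Egfr stood at 11.6 FPKM in 6419c5, against 2.97 in 2838c3 and 1.53 in 6499c4, and differed from both (adjusted p = 9.32e-05 and 2.24e-05). Socs3, a feedback inhibitor of cytokine signalling, was at 20.3, 12.4 and 7.37 FPKM in the same order.

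Lgals9, the gene of galectin-9 (chromosome 11, 78962974 to 78984946, minus strand), hardly varied. It had 94.7 and 96.9 FPKM in 2838c3, against 110 and 107 in 6419c5 and 110 and 106 in 6499c4, from 923 to 1591 reads. The read ratios of G-1 to vehicle were 1.02, 0.974 and 0.972, and each interval held 1. The mean log2 difference for G-1 was -0.02 (SE 0.06, interval -0.14 to 0.11, adjusted p = 0.944). No pair of lines differed at the threshold. The 2838c3 libraries were the lowest, but the differences of 0.18 and 0.17 to 6419c5 and 6499c4 had adjusted p-values of 0.0628 and 0.0642. That of 6499c4 passed when libraries were scaled by total reads (adjusted p = 0.00796) or by quantiles (0.0312), and that of 6419c5 by total reads (0.0418). The difference between 6419c5 and 6499c4 was within -0.15 to 0.16 by its interval.

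Lgals9 was not the leading galectin. Lgals1, whose product also acts on T cells, stood at 2277, 1012 and 1438 FPKM in 2838c3, 6419c5 and 6499c4, and Lgals3 at 501, 437 and 507. Of the 5 other galectins at or above the filter none was called for G-1, and their median log2 difference was 0.12. Lgals3 (0.12, SE 0.06, adjusted p = 0.521) and Lgals2 (0.15, SE 0.08, adjusted p = 0.569) were higher in all 3 lines. Over all genes 15.4% were. Lgals4, an intestinal galectin, had 0 reads in 2838c3. With vehicle and G-1 it had 7 and 17 reads in 6419c5, and 39 and 106 in 6499c4. Its log2 difference for G-1 was the largest of the 5 at 0.76 (SE 0.25) and did not pass (adjusted p = 0.405).

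Tnfsf9, the gene of the CD137 ligand (chromosome 17, 57105325 to 57107757, plus strand), followed the order 2838c3, 6419c5, 6499c4. Its values were 23.4 and 24.8 FPKM in 2838c3, against 21.5 and 17.0 in 6419c5 and 11.5 and 11.6 in 6499c4. With G-1 the read ratio was 1.06 (interval 0.887 to 1.27) in 2838c3, 0.791 (0.622 to 1.00) in 6419c5 and 1.00 (0.772 to 1.30) in 6499c4. The mean log2 difference was -0.08 (SE 0.10, interval -0.30 to 0.15, adjusted p = 0.813) and became 0.04 without 6419c5. The level in 6499c4 lay below that in 2838c3 (-0.998, SE 0.12, adjusted p = 0.00035) and in 6419c5, which was higher by 0.68 (SE 0.12, adjusted p = 0.00301). The neighbours 2838c3 and 6419c5 differed by -0.32 (interval -0.59 to -0.04, adjusted p = 0.0573), which did not pass. It was -0.50 without the vehicle library of 6419c5 (adjusted p = 0.0358) and -0.13 without its G-1 library (0.419), and it passed with the filter at 5 FPKM (0.0484). An exon of Gm11110 overlaps Tnfsf9 on the other strand, and that gene was counted separately with 11 to 29 reads per library.

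Tnfsf9 was the main TNF family ligand of these cells by level per length. Of the 16 others on the list, 6 had 0 reads in all libraries, among them Fasl, Cd70 and Tnfsf18, and 3 passed the filter. Tnfsf15, which encodes TL1A, was higher under G-1 in all 3 lines, at 0.201 FPKM with vehicle and 0.563 with G-1 in 2838c3, 1.85 and 3.25 in 6419c5, then 1.35 and 2.44 in 6499c4. These values rest on 10 to 114 reads. Its log2 difference of 0.50 (SE 0.14) did not pass (adjusted p = 0.363). Tnfsf4, which encodes the OX40 ligand, had 28 and 26 reads in 6419c5, 9 and 6 in 2838c3 and 0 in 6499c4.

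Cd47 (chromosome 16, 49800533 to 49915010, plus strand) was abundant in all libraries and lowest in 6499c4. It had 70.6 and 72.4 FPKM in 2838c3, against 80.6 and 84.2 in 6419c5 and 40.1 and 43.3 in 6499c4, so that the 6499c4 libraries lay apart from the other 4. The G-1 value was the higher in each line by a small margin, with a ratio of 1.03 in 2838c3 (interval 0.945 to 1.11), 1.04 in 6419c5 (0.955 to 1.14) and 1.08 in 6499c4 (0.970 to 1.20). The mean log2 difference of 0.07 (SE 0.06, interval -0.07 to 0.20, adjusted p = 0.709) did not pass. Compared with 2838c3 the level in 6499c4 was lower (log2 difference -0.76, SE 0.07, adjusted p = 0.000109). Against 6499c4 the level in 6419c5 was higher by 0.97 (SE 0.07, adjusted p = 5.79e-05). The excess of 6419c5 over 2838c3 was 0.20 (SE 0.07, adjusted p = 0.0459). That call held in 5 of 13 alternatives and was lost when any 1 library was left out (adjusted p from 0.0503 to 0.239).

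Other genes of phagocytosis control were present as well, with 6 of 8 non-members at or above the filter and 0 called for G-1. Thbs1, whose secreted product thrombospondin-1 binds CD47, was lower in all 3 lines (-0.33, SE 0.06, adjusted p = 0.238). Its vehicle and G-1 levels were 78.6 and 59.8 FPKM in 2838c3, 177 and 142 in 6419c5, then 7.94 and 6.34 in 6499c4. Between lines Thbs1 ranged from 7.14 FPKM in 6499c4 to 69.2 in 2838c3 and 160 in 6419c5. Compared with 2838c3, 4 of the 6 genes were lower and 1 higher in 6499c4, beside 28.9% and 26.6% of all genes. Among the lower were Thbs1 and Lrp1, the receptor that reads the engulfment signal calreticulin, at 3.49 FPKM in 6499c4 against 7.12 in 2838c3 (-0.86, SE 0.13, adjusted p = 0.00121). Sirpa, the macrophage receptor of CD47, had 0 or 1 read per library.

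Pvr, the gene of CD155, was highest in 6419c5 and lowest in 6499c4. The values were 32.9 and 32.1 FPKM in 2838c3, against 60.01 and 52.03 in 6419c5 and 20.7 and 21.1 in 6499c4, and no library of one line overlapped another line. The ratio of G-1 to vehicle was 0.973 in 2838c3 (interval 0.845 to 1.12), 0.867 in 6419c5 (0.763 to 0.984) and 1.02 in 6499c4 (0.852 to 1.21). Over the lines this came to -0.07 on the log2 scale (SE 0.07, interval -0.24 to 0.09, adjusted p = 0.755). The level in 6419c5 was above that in 2838c3 by 0.76 (SE 0.09, adjusted p = 0.000382) and above that in 6499c4 by 1.38 (SE 0.09, adjusted p = 3.19e-05). In 6499c4 it was below 2838c3 (-0.61, SE 0.09, adjusted p = 0.000841).

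Pvrl2, the gene of CD112, had the opposite extreme. It was at 6.85 and 6.30 FPKM in 2838c3, against 5.85 and 6.03 in 6419c5 and 9.96 and 12.9 in 6499c4, so the line with the least Pvr had the most Pvrl2. Within 6499c4 the G-1 library was above vehicle by a read ratio of 1.29 (interval 1.11 to 1.51), from 314 to 356 reads. In 2838c3 the ratio was 0.918 (0.748 to 1.13) and in 6419c5 it was 1.03 (0.798 to 1.33). The mean log2 difference was 0.09 (SE 0.11, interval -0.18 to 0.36, adjusted p = 0.818), and -0.04 without 6499c4. The level in 6499c4 exceeded that in 2838c3 by 0.70 (SE 0.14, adjusted p = 0.00407), and 6419c5 was below 6499c4 by a log2 difference of -0.83 (SE 0.14, adjusted p = 0.00268). Between 6419c5 and 2838c3 the difference was -0.13 (interval -0.45 to 0.20, adjusted p = 0.48). In the GRCm38 annotation both genes lie on the minus strand of chromosome 7, Pvrl2 from 19716644 to 19750483 and Pvr from 19903578 to 19921160, 153 kb apart.

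Among the relatives of these genes, 3 of 5 non-members passed the filter and 0 were called for G-1. Pvrl1 passed it only through 2838c3, so its lower level elsewhere is tied to the filter. Pvrl3 and Cadm1 were lower in 6419c5 and in 6499c4 than in 2838c3, where 25.3% and 28.9% of all genes were lower. Pvrl1, which encodes the adhesion molecule nectin-1, had 172 and 134 reads in 2838c3 and 2 or 3 reads in each library of the other lines. Pvrl3, which encodes the adhesion molecule nectin-3, was at 20.6, 14.7 and 6.46 FPKM in 2838c3, 6419c5 and 6499c4.

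**Figure D4:**
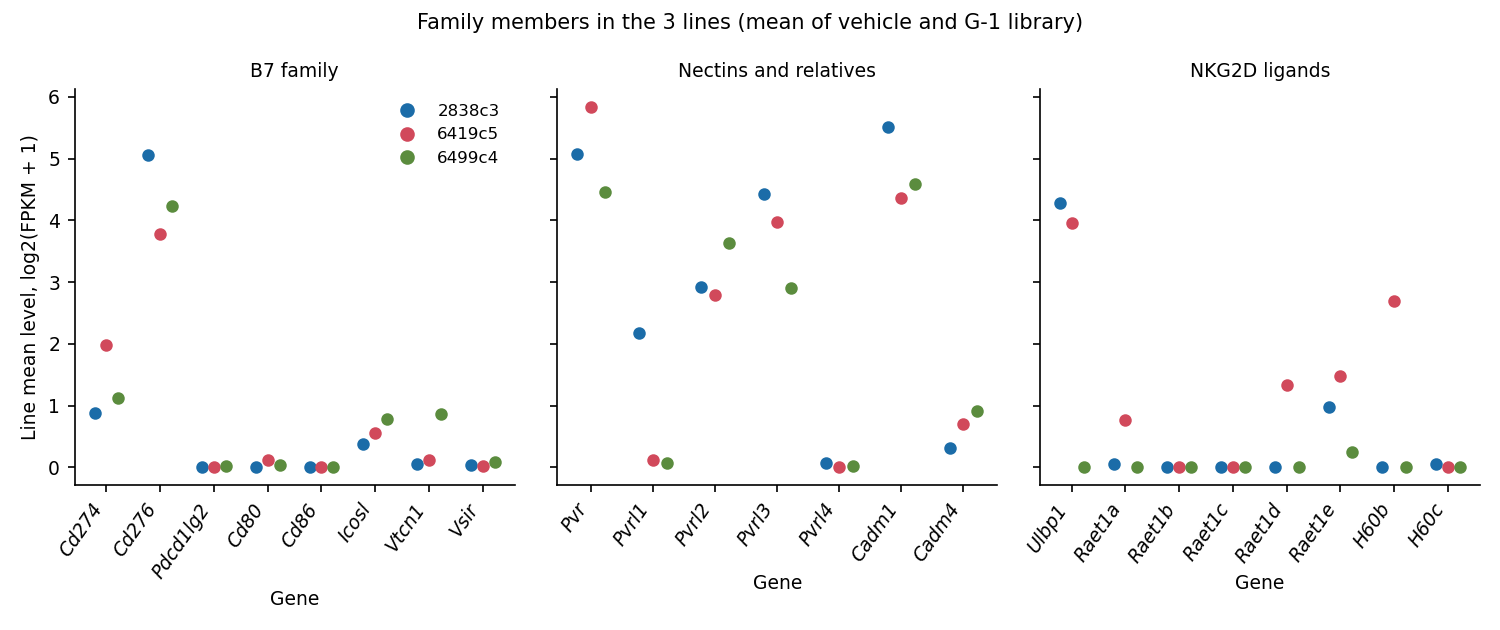
Line mean level, log2(FPKM + 1), of B7 family genes, of nectins and relatives and of NKG2D ligands in the 3 lines, each point the mean of a vehicle and a G-1 library. Cd276 and Cd274 are the B7 genes above the background of the panel, Pvrl1 is high in 2838c3 alone, and Ulbp1 is the highest NKG2D ligand in 2838c3 and 6419c5 and at 0 in 6499c4.

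Ulbp1, the gene of the NKG2D ligand MULT1, was well expressed in 2 lines and not detected in the third. It had 19.0 and 18.0 FPKM in 2838c3 (295 and 279 reads), 15.3 and 13.7 in 6419c5 (199 and 136 reads), and 0 reads in both libraries of 6499c4. With a limit of 3 reads per library, the level in 2838c3 was at least 95.7-fold higher than in 6499c4, and that in 6419c5 at least 75.3-fold higher. These bounds leave out counting error in 2838c3 and 6419c5. Both comparisons passed in limma (adjusted p = 6.42e-07 and 1.30e-06). The gene was tested only because of its level in 2838c3 and 6419c5, so its lower level in 6499c4 is tied to the filter. These p-values are therefore no separate support. With 1 library left out, the log2 difference of 6499c4 to 2838c3 ranged from -4.34 to -4.23. That of 6419c5 to 6499c4 ranged from 3.90 to 4.01. These ranges are no separate support either, since 6499c4 had 0 reads in both libraries. The pseudocount also limits these log2 differences, which were 19.5-fold and 15.5-fold in the full fit. Between 6419c5 and 2838c3 the difference of -0.33 (interval -0.62 to -0.04, adjusted p = 0.0596) did not pass, but did with no variance trend (0.0341). G-1 left the gene at 0 reads in 6499c4, and the ratio to vehicle was 0.948 (interval 0.802 to 1.12) in 2838c3 and 0.897 (0.716 to 1.12) in 6419c5. The log2 difference for G-1 over all lines was -0.07 (SE 0.10, adjusted p = 0.835), and it includes the 0 of 6499c4.

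Such a pattern, with exactly 0 reads in 1 line, was rare. Of 5767 genes with a line mean of at least 10 FPKM in both 2838c3 and 6419c5, 2 had no read in 6499c4, Ulbp1 and the endocytic adaptor gene Dab2. The same count was 5 of 5770 for 2838c3 against the other lines and 0 of 5670 for 6419c5. This criterion was set after the values of Ulbp1 were seen, so the count describes the data. It also leaves out near-complete losses. Tmem176a, for example, was at 0.293 and 0.223 FPKM in 6499c4, against 53.2 to 85.8 in the libraries of the other lines. Ulbp1 lies on chromosome 10 from 7440362 to 7473638 on the minus strand (GRCm38), and no exon of another gene overlaps it. Within 1000 kb of it the table holds 13 protein-coding genes, of which 9 passed the level filter. All 9 had reads in 6499c4, at 0.240 to 1.31 times the mean of the other lines. The nearest on either side were Cnksr3 and Lrp11. Cnksr3 was at 3.63 FPKM in 2838c3, 1.99 in 6419c5 and 2.33 in 6499c4, so it was not lowest in 6499c4. Lrp11 was at 4.70, 9.96 and 1.76 FPKM in the same order.

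**Figure D5:**
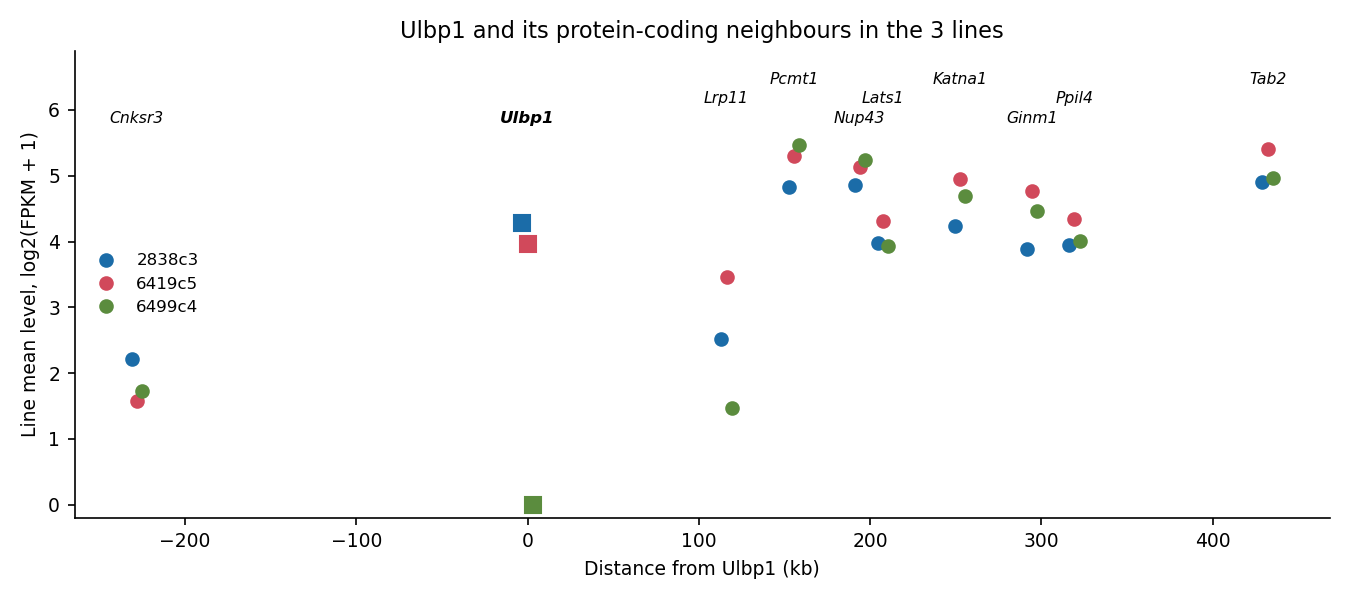
Line mean level, log2(FPKM + 1), of Ulbp1 (squares) and of the 9 protein-coding genes within 1000 kb at or above the level filter (circles), against distance from Ulbp1 in kb with small offsets between lines. Ulbp1 falls to 0 in 6499c4, and each neighbour keeps a level above 0 in that line.

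The other NKG2D ligands had few reads in all lines. In 6499c4 and in 2838c3 alike, all but Raet1e had 0 or 1 read per library. Of the 7 others in the table, Raet1b and Raet1c had 0 reads in every library and Raet1e had 1 and 3 reads in 6499c4, against 13 and 8 in 2838c3 and 14 and 14 in 6419c5. H60b had 12 and 5 reads in 6419c5 and none elsewhere, and Raet1d had 13 and 11 reads in 6419c5 and none elsewhere. H60c had 1 read with G-1 in 2838c3 and none elsewhere. Raet1a had 1 and 0 reads in 2838c3, 5 and 8 in 6419c5 and none in 6499c4. The Raet1 genes are near-identical copies, and their values are uncertain, since the counting of shared reads was not given in the sources used here.

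Nt5e, the gene of CD73 (chromosome 9, 88327197 to 88372092, plus strand), showed the largest difference between lines after Ulbp1. It was at 44.8 and 44.8 FPKM in 2838c3, against 56.9 and 52.6 in 6419c5 and 11.2 and 11.9 in 6499c4. The libraries of 6499c4 thus lay well below the others, with 367 and 342 reads against 1025 to 1455. Compared with 2838c3 the log2 difference of 6499c4 was -1.87 (SE 0.09, adjusted p = 4.66e-06), and 6419c5 was above 6499c4 by 2.15 (SE 0.09, adjusted p = 3.80e-06), 4.44-fold on this scale. The excess of 6419c5 over 2838c3 was 0.28 (SE 0.09, adjusted p = 0.0271). That call held in 8 of 13 alternatives and was lost without either library of 2838c3 (adjusted p = 0.136 without vehicle, 0.118 without G-1) or of 6419c5 (0.196 and 0.0553), and with no variance trend (0.0598). G-1 gave a read ratio of 1.00 in 2838c3 (interval 0.928 to 1.08), 0.924 in 6419c5 (0.853 to 1.00) and 1.06 in 6499c4 (0.916 to 1.24), and a mean log2 difference of -0.01 (SE 0.07, interval -0.17 to 0.15, adjusted p = 0.976).

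The enzymes that supply AMP to CD73 were uneven. Entpd1, the gene of CD39, which makes AMP from ATP on immune cells, had 0 reads in all libraries, and Entpd2 had 4 to 19 reads per library. Enpp1, whose ectoenzyme also makes AMP from ATP, was expressed in all lines and highest in 6499c4, at 14.7 FPKM against 8.88 in 6419c5 and 4.68 in 2838c3. Enpp3, a related ectoenzyme gene, stood at 17.9 FPKM in 6419c5 and 18.5 in 6499c4, the lines with the most and the least Nt5e, and at 2.22 in 2838c3. Of 9 non-members of the adenosine list that passed the filter 0 were called for G-1, 4 were lower and 0 higher in all 3 lines (17.5% and 15.4% over all genes), and their median log2 difference was -0.08. Enpp1 was among the lower (-0.30, SE 0.09, adjusted p = 0.371), at 5.20 FPKM with vehicle and 4.17 with G-1 in 2838c3, 9.87 and 7.88 in 6419c5, then 16.5 and 12.8 in 6499c4. Slc29a1, the adenosine transporter gene (-0.08, SE 0.06, adjusted p = 0.657), and Entpd5 (-0.05, SE 0.11, adjusted p = 0.895) followed. Adora1, an adenosine receptor gene, stood at 13.1 FPKM in 2838c3, 0.163 in 6419c5 and 1.48 in 6499c4.

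Promoters are shown for the genes at the extremes of these patterns: Ulbp1 and Nt5e, which differed most between lines, Cd274, which had the lowest level, and Lgals9, which had the highest and most even one. Each run holds 250 bases before and 50 after the RefSeq start site, 5′ to 3′ on the strand of the gene, in the GRCm38.p6 build. They span chr10:7473428-7473727 (minus strand), chr9:88327359-88327658 (plus), chr19:29367188-29367487 (plus) and chr11:78984875-78985174 (minus). Capitals mark matches on either strand to the XRE core GCGTG of the aryl hydrocarbon receptor, the GC box GGGCGG or the interferon-response (ISRE) core, in which TTTC and TTTC stand 2 bases apart.
Ulbp1: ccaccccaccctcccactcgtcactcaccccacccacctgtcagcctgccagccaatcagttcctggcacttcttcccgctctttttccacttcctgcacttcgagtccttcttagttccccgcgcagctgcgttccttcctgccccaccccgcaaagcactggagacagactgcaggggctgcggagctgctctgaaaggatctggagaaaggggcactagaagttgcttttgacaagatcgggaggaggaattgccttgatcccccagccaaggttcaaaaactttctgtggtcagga
Nt5e: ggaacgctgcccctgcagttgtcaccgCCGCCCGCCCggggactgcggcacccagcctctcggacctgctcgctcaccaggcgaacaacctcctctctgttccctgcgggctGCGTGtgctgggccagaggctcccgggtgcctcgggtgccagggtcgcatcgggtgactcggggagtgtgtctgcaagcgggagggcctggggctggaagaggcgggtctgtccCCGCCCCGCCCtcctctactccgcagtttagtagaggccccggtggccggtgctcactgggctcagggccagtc
Cd274: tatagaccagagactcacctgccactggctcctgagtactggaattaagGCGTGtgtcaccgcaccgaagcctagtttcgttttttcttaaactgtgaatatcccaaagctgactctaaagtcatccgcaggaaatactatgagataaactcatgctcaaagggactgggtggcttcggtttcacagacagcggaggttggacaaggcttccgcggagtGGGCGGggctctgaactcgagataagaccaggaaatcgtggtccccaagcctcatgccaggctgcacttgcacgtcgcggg
Lgals9: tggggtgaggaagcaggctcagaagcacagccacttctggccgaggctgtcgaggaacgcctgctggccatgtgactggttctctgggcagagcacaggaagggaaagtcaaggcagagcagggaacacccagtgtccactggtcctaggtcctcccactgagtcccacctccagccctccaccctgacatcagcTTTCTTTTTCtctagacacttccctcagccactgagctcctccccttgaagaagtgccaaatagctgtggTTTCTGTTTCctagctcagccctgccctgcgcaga

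The search also covered the E-box CACGTG, the cAMP-response motif TGACGTCA, the AP-1 motif TGANTCA, the interferon gamma site TTCNNNGAA and the NF-kB motif, none of which was found in these 4 runs. Ulbp1 held no match to any motif searched. Nt5e held 1 XRE core and 4 GC boxes, some of which overlap. Cd274 held 1 XRE core and 1 GC box, and Lgals9 held 2 ISRE cores, at positions -55 and 16 from the start site. An XRE core was held by 32.4% of all 32851 RefSeq promoters, a GC box by 35.7% and an ISRE core by 3.44%. RefSeq promoters were matched for 7 of the 9 genes. Outside these 4, the cAMP-response motif was found in the promoter of Pvrl2, at position 40, as in 1.79% of all promoters. GC content was 57.3% in Ulbp1, 71.0% in Nt5e, 52.7% in Cd274 and 58.0% in Lgals9, beside a median of 52.7%. These matches describe the letters in the window, and binding was not measured.

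Of 14 receptor genes on a further list, not all of them receptors of the 9 members, 4 were at or above the level filter. These were Cd44, Tigit, Klrc1 and Havcr2. A further 7 had 0 reads in all libraries, among them Pdcd1, Cd226, Cd96 and Klrk1, which encode PD-1, CD226, CD96 and NKG2D. Cd44, an adhesion receptor of many cell types that also binds galectin-9, was the most abundant at 125 FPKM in 2838c3, 121 in 6419c5 and 32.8 in 6499c4. It was lower in 6499c4 than in 2838c3 (-1.90, SE 0.07, adjusted p = 1.85e-06). Tigit, the inhibitory receptor gene for CD155, stood at 42.7 FPKM in 2838c3, 35.2 in 6419c5 and 15.9 in 6499c4, from 97 to 357 reads. T cell and NK markers were at or near 0 in the same libraries, as given above. In GENCODE no gene overlaps Tigit, but its RefSeq span overlaps Zbtb20 on the other strand, and reads cannot be assigned by strand here. Tigit was lower with G-1 in all 3 lines (-0.29, SE 0.10, adjusted p = 0.436) and did not pass. Klrc1, which encodes the inhibitory NK receptor NKG2A, had 66 and 70 reads in 2838c3 and 1 read in all in the other lines. It passed the filter through 2838c3 alone. Havcr2, the gene of TIM-3, had 10 to 33 reads in 2838c3 and 6419c5 and 1 or 2 in 6499c4.

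Other surface inhibitors on the list gave 0 calls of 6 for G-1. Cd55, which protects cells from complement, was higher in all 3 lines (0.27, SE 0.10, adjusted p = 0.441), and stood at 40.8 FPKM in 6419c5 against 4.24 in 2838c3 and 2.87 in 6499c4. Serpinb9, an inhibitor of the killer-cell protease granzyme B, was lower in all 3 (-0.17, SE 0.09, adjusted p = 0.546). Ceacam1, a ligand of TIM-3, had 138 and 103 reads in 6419c5, 11 and 20 in 6499c4 and 0 in 2838c3.

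The genes whose values ran most closely with the members over the 6 libraries were found by Pearson's r on log2(FPKM + 1), among 2029 genes at or above the level filter with an SD of at least 0.5. Libraries of a line share a cell population, so these values mostly compare 3 lines. Ulbp1 was most like Avil, Tmem176a and H6pd (r from 0.999 to 1.00). Unlike Ulbp1, all 3 had reads in 6499c4, Tmem176a at 0.293 and 0.223 FPKM. Nt5e was most like Tns2, Igf2bp3 and St3gal1 (r from 0.998 to 0.999), and Pvr was most like Mfn2, Akap12 and Fkbp11 (0.997 to 0.999).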

How the data were processed

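RNA sequencing libraries of 3 mouse tumour lines, each with vehicle and G-1, were analysed from 1 deposited table of FPKM values with 1 column per library. The deposited FPKM unit is taken from the name of the table. The submitters' processing notes list STAR and DESeq2 but assign them no step. Alignment settings, genome build, annotation, counting rule and strandedness were not given in the sources used here. For all 15712 genes above 0 each value was an integer times a unit particular to the gene, to within 0.01 reads, which returned whole reads. Reads that share a common divisor would come out too low by that factor. The library scale matched median-of-ratios size factors.

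The 10748 genes whose mean reached 1 FPKM were tested on the log2(FPKM + 1) scale in limma 3.58.1 (R 4.3.3) with a variance trend, two-sided, with Benjamini and Hochberg adjustment over all of them and a threshold of 0.05. A single fit with line and treatment gave G-1 against vehicle, with the line as block, and each pair of lines. Both libraries of a line come from the same cell line, and their deviations from the treatment means correlated at 0.906, 0.871 and 0.882. Read ratios use the authors' scale, with exact 95% binomial intervals (scipy 1.17.1) that cover counting error only. A read count of 0 allows 3 reads, or between 0.337 and 0.550 RPM depending on the library. The fit was tested on simulated data. No member fell under the level filter, so the sign-flip test planned for such members was not needed.

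The members and lists were chosen with earlier results of these data known. In each pathway list, genes were named by call or by the same sign in all lines, ranked by their smallest difference (up to 3), and by the widest spread of line means (up to 2), and some that the rule took are not described. Genes at 0 and genes named only by level or read number, such as Lgals1, Icosl, Raet1e, Entpd2, Ifngr1, Cmtm6, Cadm1, Cd44 and Dab2, were chosen after their values were seen. H60a and Trbc2 were not analysed here. Positions are from GENCODE M21 (GRCm38) and promoters from RefSeq (GRCm38.p6). No coordinates of the authors were used.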

Additional observations from a re-analysis of the deposited data

Results flagged for a closer look

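For 3 genes the read ratio of G-1 to vehicle lay to one side of 1 by its counting interval in 1 line and on the other side of 1 in another line. The share of all genes that meet this rule was not worked out, so the 3 genes are listed as a description only. Their intervals cover counting error and leave out spread between cultures. The difference between lines was not tested, since each line has 1 library per treatment. Cd274 had a ratio of 0.474 in 2838c3 and 1.38 in 6499c4. Pvr had 0.867 in 6419c5 and 1.02 in 6499c4. Pvrl2 had 1.29 in 6499c4 and 0.918 in 2838c3. In each case the interval of the line named second included 1, so a change the other way was not resolved. These intervals were 0.851 to 2.27 for Cd274, 0.852 to 1.21 for Pvr and 0.748 to 1.13 for Pvrl2.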

How the results depend on the processing

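For G-1 the count of members called was 0 under each of 11 alternatives, including the fit with no replicate block for the line (0 called). Of 446 member settings, 408 kept direction and side of the threshold, 18 lost a call, 6 gained one and 14 changed direction. Leaving out 1 library at a time, the count between 6419c5 and 2838c3 ranged from 2 to 4 (5 with all libraries). Over the same omissions it was 7 between 6499c4 and 2838c3, and 6 to 8 between 6419c5 and 6499c4. An arm left with 1 library is assumed to vary like the others. Leaving out 1 line, the log2 difference for G-1 ranged from -0.26 to 0.10 for Cd274, -0.035 to 0.19 for Pvrl2, -0.055 to 0.042 for Nt5e and -0.16 to 0.041 for Tnfsf9. Leaving out 1 library, Pvrl2 between 6419c5 and 2838c3 ranged from -0.27 to 0.023, Cd274 between 6499c4 and 2838c3 from -0.041 to 0.54, and Lgals9 between 6419c5 and 6499c4 from -0.015 to 0.024. Scaling by total reads gave 0.0016 for Lgals9 and 0.0077 for Nt5e under G-1, and -0.10 for Lgals9 between 6419c5 and 6499c4. Quantile scaling gave -0.053 for the last and -0.033 for Cd274 between 6499c4 and 2838c3. The cause of these changes was not tested. Cd274 is under the filter at 5 FPKM and has no value there. Its 17 to 78 reads per library leave wide intervals, and 1 library per line and treatment leaves no test within a line.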
